A study of Arabidopsis thaliana with 6 samples.

Results

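The genes described here encode proteins that copy DNA and the histones that package it. They comprise 60 loci grouped by function and chosen with earlier results of these data known. Of these, 35 are for DNA replication, 8 for replication-type core histones (H2A, H3.1 or H4), 7 for H2B, 8 for histone variants and 2 for linker histone H1. A locus was taken as measured where the platform's gene table assigns a probe set to that gene alone, and 15 of the 60 were, among 13355 genes measured in all. All 15 had 1 probe set each. The 2 groups were calli (3 arrays) and leaves (3 arrays), both Col-0. The calli, unorganized cell masses, had formed on leaf blades cut from 20-day-old plants and kept for 20 days on callus-inducing medium (CIM), which holds an auxin, a cytokinin and glucose. The leaves came from seedlings of 20 days. Tissue, hormones, sugar, wounding and culture therefore differed together, and their effects cannot be told apart. Labels of both tissues give 16 h of light, whereas the methods place explants in the dark, and an effect of light was not tested. The 3 arrays of a tissue are described as independent experiments.

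Before each cell division the genome is duplicated in S phase. The origin recognition complex marks start sites and loads a ring of MCM proteins, which becomes the active helicase once CDC45 and the GINS complex have joined. Polymerase alpha with its primase lays down primers, polymerase delta extends them, and the flap endonuclease trims the joints between fragments of the lagging strand. New DNA is wrapped at once around histones H2A, H2B, H3 and H4. Histone H3.1 is made mainly for S phase, H3.3 is made and deposited throughout the cell cycle, and H1 binds the linker between nucleosomes. Unlike those of animals, most histone mRNAs of plants carry poly(A) tails, so the oligo(dT) priming used here can capture them. Most cells of a grown leaf blade no longer divide, and the study followed the return of division in cultured explants.

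Expression is given as the deposited log2 signal, on which 1 unit is a 2-fold difference. The array medians lay between 5.79 and 5.96 and the first quartiles between 4.15 and 4.23. Arrays of a tissue correlated across genes at r of 0.9949 or more, and arrays of different tissues at 0.765 to 0.775. The labelled tissues carried their markers. All 8 measured photosynthesis markers were lower in callus, with a list mean of 5.16 to 5.25 in callus and 12.91 to 12.98 in leaf. Of 5 measured markers of roots and callus, 4 were higher, with a list mean of 6.88 to 6.95 in callus and 4.54 to 4.59 in leaf, and of 4 guard cell markers 2 were lower (3.91 to 4.05 in callus, 5.54 to 5.67 in leaf). Neither measured shoot meristem marker was called (4.12 to 4.38 in callus, 4.17 to 4.22 in leaf), and no vascular marker was measured. The stomatal lineage genes MUTE and SPCH and the stem cell gene CLV3 lay below the first quartile on all 6 arrays. The part of the cell types behind these markers in the results below was not tested. In such bulk samples, fewer cells of a type and less RNA per cell cannot be told apart.

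Of the 6 measured replication genes 5 were called higher in callus and 0 lower. Of the 6 H2B genes 2 were called higher and 1, HTB3, lower. Of the 2 linker histone genes 1 was called higher and 0 lower, and the H3.3-type gene was not called. Calls required both a Benjamini-Hochberg adjusted p below 0.05 by limma and a fold above 2. Of the 15 measured members 8 were called higher, against 16.4% of all 13355 genes, and 1 was called lower, against 13.2%. The remaining 6 were not called, 5 of them with an adjusted p under 0.05 and a smaller fold. The callus and leaf arrays did not overlap for 14 of the 15, which was also true of 66.0% of all genes. The median log2 fold change (callus over leaf) was 2.03 for the 6 replication genes, 0.60 for the 6 H2B genes and 1.10 for all 15, beside 0.01 for all genes. By scaling, the median of all genes moved to -0.58 with the reference gene TIP41 as the centre of each array, to 0.27 on the hybridization controls and to 0.67 on the poly-A controls, and the share of called genes that were higher moved from 55.4% to 31.0%, 64.9% and 78.0%. A centring shifts every member alike, so differences between members do not depend on it. They can depend on the quantile normalization of the deposited values. When it was applied again, members moved unequally (MCM7 from 2.70 to 2.65, HIS1-3 from 1.64 to 1.67). No test was made between the classes. The members were chosen with earlier results of these data known, so their counts beside all genes are a description only.

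**Figure D1:**
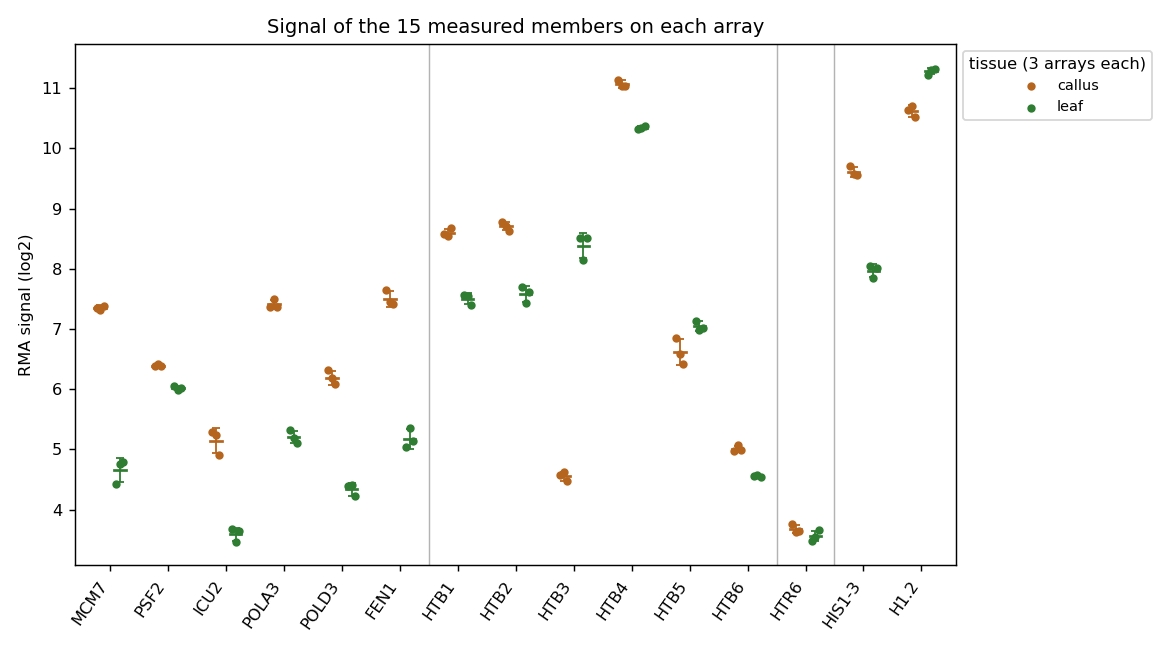
Log2 signal (vertical axis) of the 15 measured members on each of 6 arrays, callus left of leaf, with the mean as a bar and the SD as whiskers (n = 3). Vertical lines part replication, H2B, H3.3-type and linker H1 genes. Only the signals of HTR6 overlap between the tissues, and signals of different genes cannot be set against each other because their probes differ.

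MCM7 (AT4G02060, also PROLIFERA), a subunit of the MCM helicase ring, showed the largest rise among the members. Its signal was 7.36, 7.32 and 7.39 on the callus arrays and 4.43, 4.76 and 4.79 on the leaf arrays. The lowest callus array lay 2.52 above the highest leaf array. The gene rose 6.48-fold (log2 fold change 2.70 ± 0.119, SE, adjusted p = 9.08e-12), higher than the change of 96.8% of all genes. MCM3, MCM5 and MCM6 were not analysed here, nor were MCM10, CDC45 and ETG1, which act with the helicase, or the 6 subunits of the origin recognition complex.

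PSF2 (AT3G12530) encodes a subunit of GINS, the complex that holds the helicase active. Its signal was 6.39, 6.42 and 6.38 in callus and 6.06, 5.99 and 6.02 in leaf. The arrays were separate, by 0.32, yet the log2 fold change of 0.37 ± 0.0997 (SE, adjusted p = 0.00403) was well below the 2-fold threshold. PSF2 was the only one of the 6 replication genes that was not called, and its direction turned after centring on TIP41 (-0.21), while on the poly-A controls it was called (1.03). PSF1, PSF3 and SLD5, the other GINS subunits, were not analysed here.

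Both measured genes of polymerase alpha-primase rose. POLA3 (AT5G41880), for a primase subunit, had signals of 7.37, 7.49 and 7.36 in callus and 5.32, 5.19 and 5.11 in leaf. It rose 4.60-fold (log2 fold change 2.20 ± 0.105, SE, adjusted p = 2.31e-11). ICU2 (AT5G67100), the catalytic subunit of polymerase alpha, which is also known for keeping silenced genes silent through replication, had 5.29, 5.23 and 4.91 in callus and 3.67, 3.47 and 3.64 in leaf. All 3 leaf values of ICU2 lay below the first quartile of their array, so its fold of 2.94 (log2 fold change 1.55 ± 0.115, SE, adjusted p = 5.91e-09) is not exact. The call of ICU2 ended after centring on TIP41, where it was at 0.97. POLA2 and PRIM2, the other listed subunits, were not analysed here.

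POLD3 (AT1G78650), an accessory subunit of polymerase delta, and FEN1 (AT5G26680), the flap endonuclease, rose as well. POLD3 had 6.31, 6.18 and 6.08 in callus and 4.39, 4.40 and 4.22 in leaf. FEN1 had 7.65, 7.45 and 7.41 in callus and 5.04, 5.35 and 5.14 in leaf. Neither gene's groups overlapped, and the gaps, 1.68 for POLD3 and 2.06 for FEN1, exceeded the SD of every group (at most 0.160). POLD3 rose 3.62-fold (log2 fold change 1.86 ± 0.117, SE) and FEN1 5.02-fold (2.33 ± 0.115, adjusted p = 3.76e-11). POLD2, the 6 loci for replication protein A, which coats single-stranded DNA, and the 5 for replication factor C, which loads the sliding clamp, were not analysed here.

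**Figure D2:**
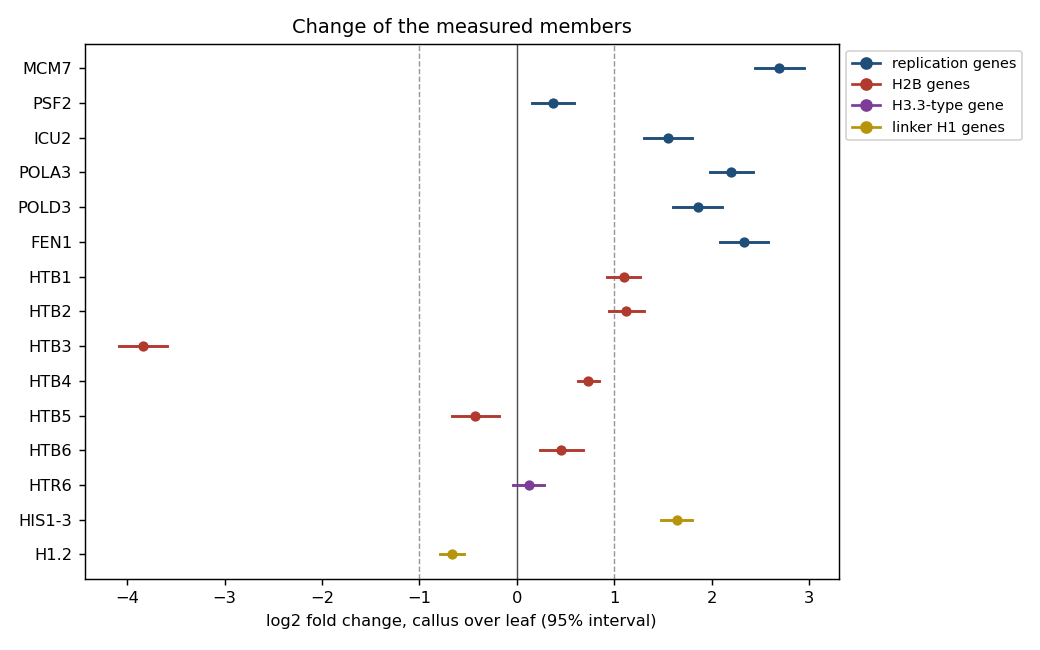
Log2 fold change of callus over leaf (horizontal axis) for each measured member, with its 95% interval from limma. Dashed lines mark 2-fold. Of the replication genes 5 lie beyond the upper line and PSF2 does not, HTB3 lies at -3.84, and the linker histone genes HIS1-3 and H1.2 lie on either side of 0.

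H2B is the only core histone for which most of the listed loci were measured. Of the 6 measured H2B genes, HTB1 and HTB2 rose, HTB3 fell, and HTB4, HTB5 and HTB6 were not called. The 6 log2 fold changes ran between -3.84 and 1.12, wider than those of the replication genes (0.37 to 2.70). RNAs of closely related genes can cross-hybridize, and whether the probes of one H2B gene detect another was not tested.

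HTB3 (AT2G28720) changed most among all 15 members. Its signal was 4.57, 4.62 and 4.47 in callus and 8.51, 8.15 and 8.51 in leaf. The highest callus array thus lay 3.53 below the lowest leaf array, and the callus signal was still above the first quartile of its arrays. The leaf signal was 14.3-fold that of callus (log2 fold change -3.84 ± 0.116, SE, adjusted p = 7.95e-14), lower than the change of all but 2.50% of genes. HTB3 was called lower under every alternative run.

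HTB1 (AT1G07790) had 8.59, 8.55 and 8.68 in callus and 7.57, 7.55 and 7.40 in leaf. HTB2 (AT5G22880) had 8.77, 8.72 and 8.63 in callus and 7.70, 7.44 and 7.62 in leaf. These genes rose by nearly the same amount, 2.14-fold for HTB1 (log2 fold change 1.10 ± 0.0784, SE, adjusted p = 3.77e-09) and 2.18-fold for HTB2 (1.12 ± 0.0833). Both 95% intervals reached below the 2-fold threshold, to 0.93 and 0.95, and both calls ended after centring on TIP41 (0.51 and 0.54).

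HTB4 (AT5G59910) had 11.14, 11.04 and 11.04 in callus and 10.32, 10.34 and 10.37 in leaf. Its replicates lay close together (SD 0.0612 in callus and 0.0258 in leaf), and its log2 fold change of 0.73 ± 0.0514 (SE, 95% interval 0.62 to 0.84, adjusted p = 2.87e-09) lay wholly below the 2-fold threshold. It was called on the poly-A controls (1.39). HTB6 (AT3G53650) had 4.98, 5.07 and 4.99 in callus and 4.55, 4.57 and 4.55 in leaf. Its log2 fold change was 0.46 ± 0.103 as deposited (SE, adjusted p = 0.00111), 1.12 with a call on the poly-A controls and -0.13 after centring on TIP41.

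HTB5 (AT2G37470) had 6.85, 6.58 and 6.43 in callus and 7.14, 6.98 and 7.02 in leaf. The groups were parted by only 0.13, the narrowest gap among the members that did not overlap, and the callus arrays spread more (SD 0.216) than the leaf arrays (SD 0.0796). The log2 fold change was -0.43 ± 0.113 (SE, adjusted p = 0.00352) as deposited, 0.23 on the poly-A controls and -1.01 after centring on TIP41, where it was called. HTB9 was not analysed here. HTB11 (AT3G46030), an H2B gene outside the list and looked up after the members' values were seen, had 9.44, 9.40 and 9.24 in callus and 9.23, 9.23 and 9.18 in leaf (log2 fold change 0.15 ± 0.0668, SE, adjusted p = 0.0692). HTB3 and HTB2 were also set against HTB4 within each array, which removes any shift common to an array. HTB3 then changed by -4.57 on the log2 scale (SD of the difference 0.0845 among callus arrays and 0.206 among leaf arrays, n = 3 each), and HTB2 by 0.39 (SD 0.0407 and 0.141).

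**Figure D3:**
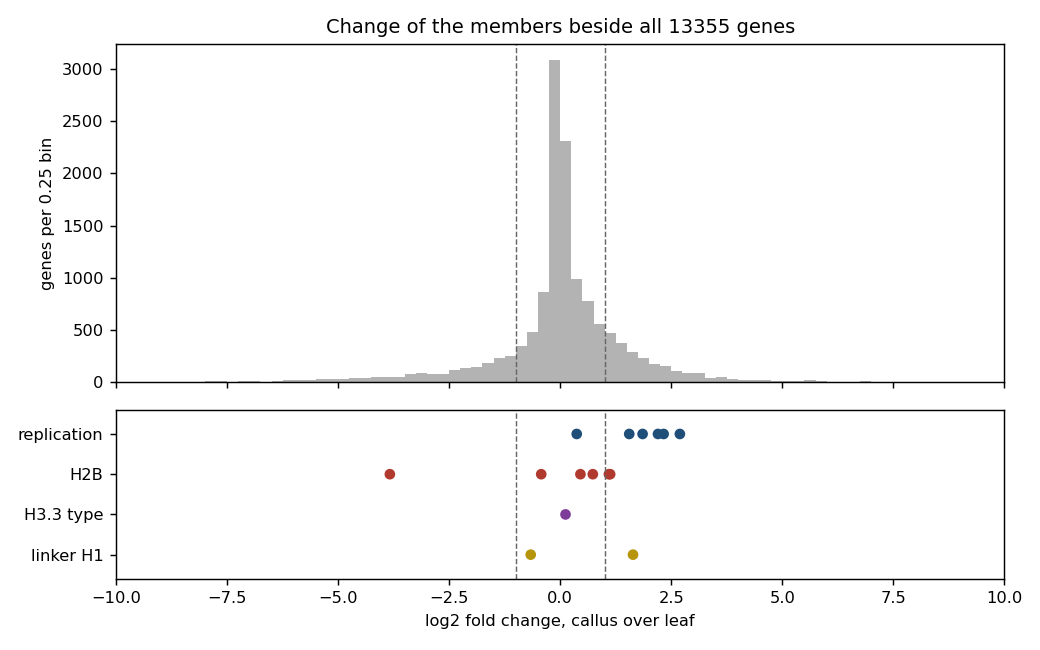
Upper panel, number of genes (vertical axis) by log2 fold change of callus over leaf (horizontal axis) for all 13355 genes, in bins of 0.25. Lower panel, the 15 members by class on the same horizontal axis, with dashed lines at 2-fold. The replication genes lie to the right of the peak at 0, between 0.37 and 2.70, and HTB3 lies in the left tail.

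The H2A loci, whether replication-type (HTA1, HTA10, HTA13), H2A.X, which is phosphorylated at DNA breaks (HTA3, HTA5), H2A.W of heterochromatin (HTA6, HTA7) or H2A.Z of gene starts (HTA8, HTA11), were not analysed here. HTR6 (AT1G13370), an H3 gene of the H3.3 type, was the only one of the 8 listed variant loci with a probe set of its own. Its signal was 3.76, 3.63 and 3.65 in callus and 3.48, 3.55 and 3.66 in leaf. These values overlapped and lay below the first quartile of all 6 arrays, and no change was detectable at this signal (log2 fold change 0.12 ± 0.0728, SE, 95% interval -0.04 to 0.28, adjusted p = 0.176, and -0.47 after centring on TIP41).

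For other H3 and H4 loci the gene table gives only probe sets that it assigns to several loci at once, which therefore belong to no single member. They were fitted with all 22746 probe sets of the array, of which 18.3% were higher and 14.9% lower in callus. The sets are therefore described as groups. Whether each set detects RNA of all the loci assigned to it was not tested. Of the 5 probe sets assigned to 5 loci for H3.1, the S-phase form (3 of the loci are members), 5 were called higher and 0 lower. Their log2 fold changes ran between 1.08 and 2.17, with a median of 1.68. After centring on TIP41 all 5 were still above 0, and 3 were called.

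Probe set 257714_at changed most of the H3.1 group, with 8.97, 8.72 and 8.58 in callus and 6.42, 6.64 and 6.70 in leaf (4.50-fold, log2 fold change 2.17 ± 0.105, SE, adjusted p = 1.74e-11). Probe set 264262_at changed least, with 8.99, 9.03 and 9.02 in callus and 7.79, 8.01 and 8.01 in leaf (2.11-fold, 1.08 ± 0.0761). For neither did the tissues overlap. After centring on TIP41, 264262_at was at 0.49 and not called.

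The H4 group held 5 probe sets assigned to 8 loci, of which 2 are members. It had 1 set called higher, beside 18.3% of all probe sets, and 0 lower. The log2 fold changes ran between 0.09 and 1.41, with a median of 0.77. Set 252562_s_at had 9.52, 9.41 and 9.11 in callus and 7.87, 7.90 and 8.06 in leaf (log2 fold change 1.41 ± 0.0952, SE, adjusted p = 1.32e-09). Set 251924_at had 10.44, 10.39 and 10.32 in callus and 10.27, 10.31 and 10.31 in leaf, groups that nearly touch (0.09 ± 0.0542, adjusted p = 0.171). After centring on TIP41, 251924_at was at -0.50 and the other 4 sets were above 0, with 0 of the 5 called by limma although 3 had an adjusted p under 0.05, and 4 of 5 were called on the poly-A controls.

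For H3.3, the form deposited outside S phase as well, 3 probe sets are assigned to 3 loci, 1 of these loci (HTR8) being a member. Their log2 fold changes were 0.60 ± 0.0429 (252849_at), 0.44 ± 0.0657 (250397_at) and -0.26 ± 0.0617 (252824_at, SE), and 0 of the 3 were called by limma, although all 3 had an adjusted p under 0.05. Set 252849_at had 13.25, 13.27 and 13.31 in callus and 12.63, 12.69 and 12.71 in leaf, whereas 252824_at had 11.92, 12.04 and 12.09 in callus and 12.41, 12.18 and 12.26 in leaf. The signs depended on the scaling, since 250397_at turned to -0.14 after centring on TIP41 and 252824_at to 0.40 on the poly-A controls. A further set, 262979_s_at, is assigned to 2 loci, of which 1 is a member (HTR6, which also has a set of its own). Set 262979_s_at averaged 3.25 ± 0.0592 in callus and 3.21 ± 0.0441 in leaf (SD, n = 3 each), with overlapping groups. It lay below the first quartile on all 6 arrays, where no change was detectable. None of the 3 brighter H3.3 sets reached the lowest log2 fold change of the H3.1 sets, and no test was made between these groups of probe sets. These 3 sets averaged 12.02 to 13.28 in callus, and whether signals this high narrow a fold was not tested.

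**Figure D4:**
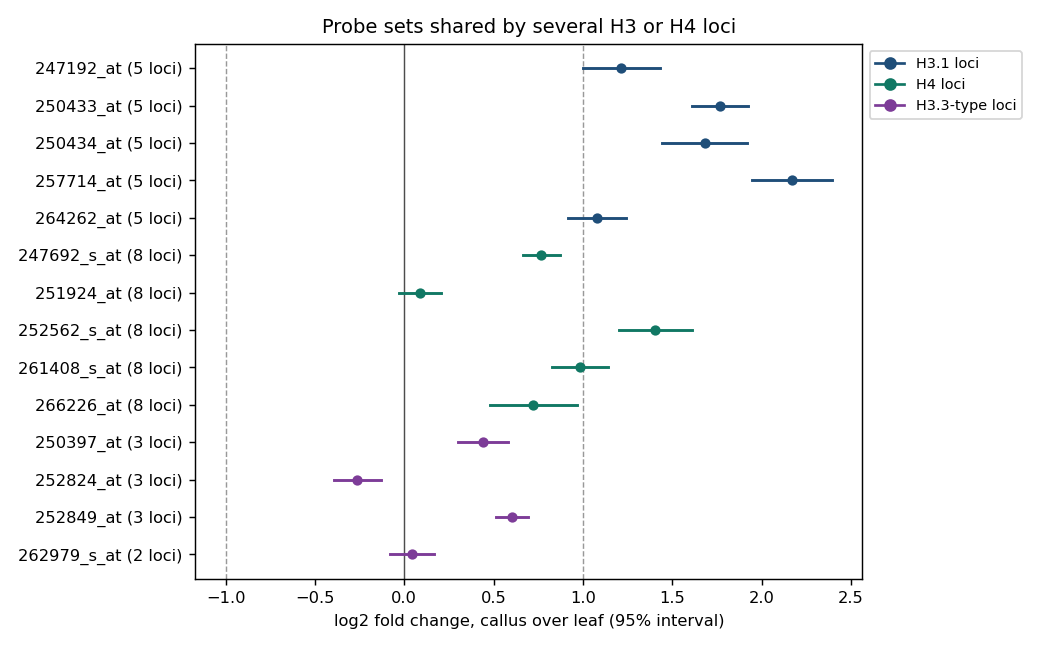
Log2 fold change of callus over leaf (horizontal axis) with its 95% interval for the 14 probe sets that the gene table assigns to several H3 or H4 loci, with the number of loci in parentheses. Dashed lines mark 2-fold. The estimates of all 5 H3.1 sets lie beyond the upper line, against 1 of 5 H4 sets and none of the 3 H3.3 sets above the first quartile. The interval of 264262_at crosses that line. The other H3.3-type set, 262979_s_at, lies below the first quartile on all 6 arrays.

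The 2 linker histone genes had log2 fold changes of opposite sign, of which only that of HIS1-3 was called. HIS1-3 (AT2G18050), an H1 form known to be induced by drought, abscisic acid and low light, had 9.70, 9.57 and 9.56 in callus and 8.05, 7.84 and 8.02 in leaf. It rose 3.12-fold (log2 fold change 1.64 ± 0.0753, SE, adjusted p = 1.42e-11). H1.2 (AT2G30620), one of the main H1 forms, had 10.64, 10.71 and 10.52 in callus and 11.22, 11.31 and 11.33 in leaf. Its leaf signal was 1.58-fold that of callus (log2 fold change -0.66 ± 0.0570, SE, adjusted p = 3.58e-08), short of the 2-fold threshold. H1.2 was called lower after centring on TIP41 (-1.25). HIS1-3 was called higher under every alternative run, several of which left its log2 fold change as it was. By scaling it ran between 1.05 on TIP41, near the 2-fold threshold, and 2.30 on the poly-A controls. Within arrays, HIS1-3 changed relative to H1.2 by 2.30 on the log2 scale (SD of the difference 0.110 among callus arrays and 0.148 among leaf arrays, n = 3 each).

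Related genes were taken from lists of the replication and division machinery. Beside the counts of each list stand the shares over all genes, 16.4% higher and 13.2% lower. Of 22 further replication loci, 3 were measured, of which 1 rose and 1 fell. TOP2 (AT3G23890), for topoisomerase II, which untangles copied DNA, had 6.80, 6.79 and 6.71 in callus and 3.53, 3.64 and 3.64 in leaf. Its log2 fold change of 3.16 ± 0.109 (SE, adjusted p = 3.97e-13) was above that of every member, though its leaf signal lay below the first quartile on all 3 arrays, so that this fold is not exact. TIM (AT5G52910), a homolog of the TIMELESS protein that protects replication forks in animals, fell (6.77, 6.72 and 6.86 in callus, 8.02, 8.39 and 8.39 in leaf, log2 fold change -1.49 ± 0.103), a call lost on the poly-A controls (-0.83). CDC6B, for a helicase loader, was at 0.02 with overlapping groups and lay below the first quartile on 2 arrays.

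Among genes that carry or exchange histones, 5 of 25 were measured, of which 4 rose and 0 fell. ASF1B (AT5G38110), a chaperone of H3 and H4, had 8.34, 8.25 and 8.09 in callus and 5.77, 5.87 and 5.79 in leaf (5.35-fold, log2 fold change 2.42 ± 0.0950, SE). Its close relative ASF1A (AT1G66740) had 7.71, 7.78 and 7.79 in callus and 7.50, 7.78 and 7.64 in leaf, groups that overlapped (0.12 ± 0.0871, adjusted p = 0.275). A test of the difference between ASF1B and ASF1A was not made. NASP, an H3 chaperone, rose by 1.75 on the log2 scale, ATRX, a remodeller that acts with H3.3, by 1.64, and SWC2, a subunit of the complex that inserts H2A.Z, by 1.46. SWC2 lost its call after centring on TIP41 (0.87).

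In the mitosis list 5 of 29 genes were measured, of which 4 rose and 0 fell. CENH3 (AT1G01370), the H3 form of centromeres, had 5.10, 5.23 and 5.28 in callus and 4.10, 3.97 and 4.04 in leaf (log2 fold change 1.17 ± 0.104, SE), with leaf signals below the first quartile on all 3 arrays and a call lost after centring on TIP41 (0.58). The Aurora kinase genes, whose products phosphorylate H3 in mitosis, were at 1.96 (AUR1), 2.05 (AUR2) and 2.36 (AUR3), and the spindle checkpoint gene BUBR1 was not called (0.64, and 1.30 with a call on the poly-A controls). The leaf signal lay below the first quartile on 2 arrays for AUR3 and on 3 for BUBR1, so the folds of AUR3, BUBR1 and CENH3 are not exact. Of the cohesin and condensin genes 2 of 12 were measured, with PDS5A higher (1.10, and 0.51 after centring on TIP41) and CAP-E2 not called (0.78, with a call at 1.04 on the hybridization and 1.44 on the poly-A controls).

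Of 20 genes for DNA damage and repair 5 were measured and 0 were called by limma. Of the 5, 3 had an unadjusted and also an adjusted limma p under 0.05. Among so few genes, 0 called cannot be told apart from the shares over all genes (16.4% higher, 13.2% lower). RAD5A, which acts in repair behind the fork, stood nearest to a call (log2 fold change 0.96 ± 0.133, SE, adjusted p = 9.84e-06) and was called without callus replicate 3 (1.01) or leaf replicate 1 (1.11) and on the hybridization (1.22) and poly-A controls (1.62), where POLH, for a polymerase that copies past lesions, was called too (1.08). Of the 5 repair genes, TEB lay below the first quartile on all 6 arrays, where a change could be missed. The leaf signal of RAD5A lay below the first quartile on 2 arrays, so its fold, and with it its side of the 2-fold threshold, is not exact. The inhibitors of cyclin-dependent kinases SIM and SMR2, known for promoting rounds of replication without division, were measured of 16 such genes. SIM was at -0.73 and SMR2 at -0.65, neither called as deposited, and both were called lower after centring on TIP41 (-1.31 and -1.24). No gene of the lists for G1/S control (20 loci), nucleotide supply (9 loci) or maintenance of methylation (8 loci) was measured.

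**Figure D5:**
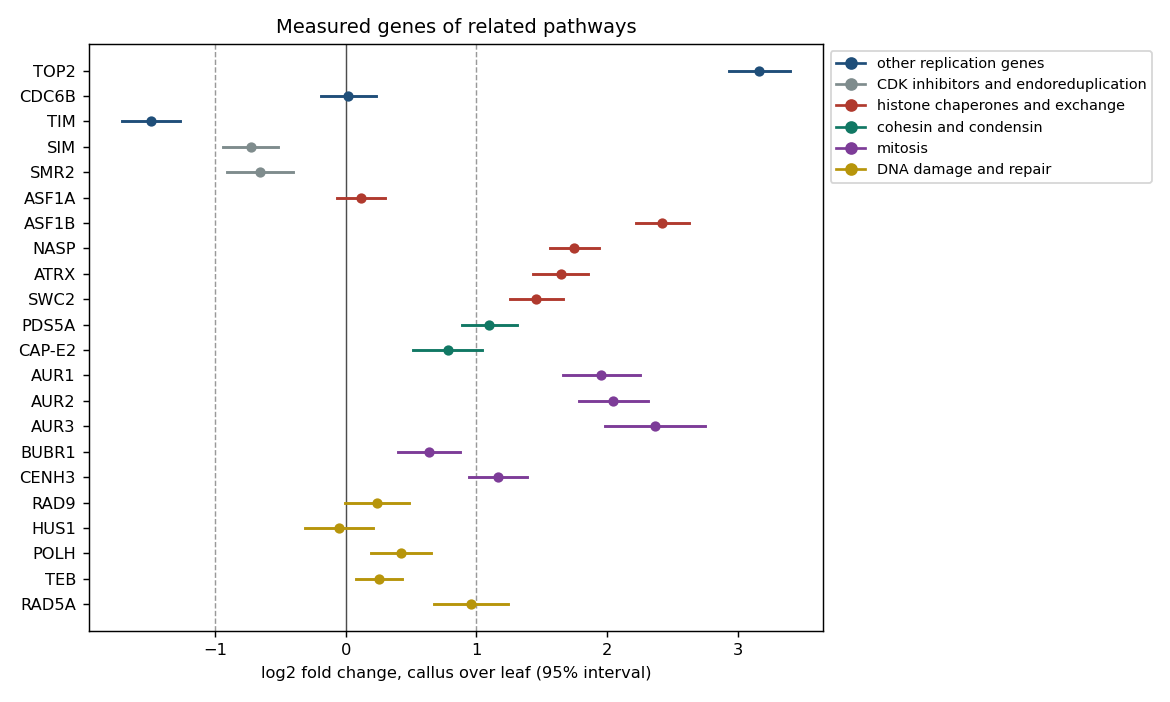
Log2 fold change of callus over leaf (horizontal axis) with its 95% interval for the 22 measured genes of 6 related lists, coloured by list. Dashed lines mark 2-fold. Histone chaperone and mitosis genes lie mostly beyond the upper line, the 5 repair genes lie below it, and TIM lies beyond the lower line at -1.49.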

How the data were processed

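The 6 Affymetrix arrays hold biotin-labelled RNA amplified with oligo(dT) primers. The values deposited by the authors are log2 signals, made with RMA (background correction, quantile normalization between arrays and summary over probes) and Partek according to the submitters' processing notes. No version of either was stated in the sources used here. Such values have no detection call and cannot show a change of total RNA per cell. Of 22810 probe sets 64 were controls, 13513 were assigned to 1 gene and 503 to several, and the remaining 8730 are unnamed here. Names came from the platform's gene table and were updated with RefSeq (TAIR10.1). Where a gene had several, the one of highest mean was kept, leaving 13355 genes.

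Fits used lmFit and eBayes (with a trend on signal) of limma 3.58.1, run in R 4.3.3, and Benjamini-Hochberg adjustment over every gene. Errors are the SD over 3 arrays or the moderated SE, and the number of arrays limits the precision. The members and lists were chosen with earlier results of these data known, so lists are described by counts and medians. The rule for naming gave array values to the members with the largest and smallest change in each role, those lower in callus and the variants, and named up to 4 called genes per direction from other lists. Further genes and probe sets were named after their values were seen. Tested on simulated data for 13355 genes, the fit recovered 99 of 100 changes of 1.5 and 100 of 100 of 3 (log2), with 0 false calls. The simulated noise was independent, at the spread within tissues, with no shift between arrays and far fewer changed genes than in the data. It therefore cannot show errors that come from scaling. Alternatives covered thresholds, moderation, scaling on TIP41, on 18 hybridization or on 27 poly-A control probe sets, a signal filter, the choice of probe set, a replicate block, each array left out and, added after seeing the data, a fit over all 22746 probe sets. Averaging the probe sets of a gene could not be applied to shared sets. Promoter and protein sequences were not analysed here.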

Additional observations from a re-analysis of the deposited data

How the results depend on the processing

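Leaving out any 1 array changed no call of a member. Counts of genes called higher and lower were 2193 and 1765 as deposited and 4597 and 3572 with no fold threshold. They were 4120 and 1160 on the poly-A controls, and 1257 and 2794 on TIP41. The fit over all probe sets counts probe sets and not genes, with 4164 higher and 3392 lower of 22746. These are 18.3% and 14.9%, beside 16.4% and 13.2% of the 13355 genes as deposited. Of the members, 5 were higher after centring on TIP41 (8 as deposited), and 3 were lower there and with no fold threshold. With genes below the median signal left out, which removed ICU2, POLD3, HTB6 and HTR6, 3 replication genes were higher. H2B genes called higher numbered 4 with no fold threshold, 4 on the poly-A controls and 0 on TIP41, and 2 were lower with no fold threshold and on TIP41, as was 1 linker gene. The replication median (2.03) was 1.44 on TIP41, 2.29 on the hybridization controls, 2.69 on the poly-A controls and 2.27 with this signal filter. The H2B median (0.60) was 0.0083, 0.86, 1.26 and 0.73 under the same settings. The linker median (0.49) was -0.10 on TIP41, 0.75 on the hybridization and 1.15 on the poly-A controls, and the median of all members (1.10) was 0.51, 1.36 and 1.76. Without 1 array the last ran between 1.04 and 1.13. After centring on TIP41, PSF2 was at -0.21, HTB6 at -0.13 and HTR6 at -0.47, and HTB5 was at 0.23 on the poly-A controls. H3.1 probe sets called higher numbered 3 on TIP41. H4 sets called higher numbered 2 after a further quantile normalization, 0 on TIP41, 3 on the hybridization controls, 4 on the poly-A controls and 4 with no fold threshold, and 1 to 2 without 1 array. H3.3-type sets called higher numbered 2 on the poly-A controls and with no fold threshold, where 1 was lower. Why the centrings differ was not tested. The replicate numbers are not stated to pair the arrays. Deviations from the tissue mean correlated at -0.11, 0.07 and -0.04 for same-numbered arrays, and between -0.11 and 0.12 for the others. Deviations from a mean of 3 arrays constrain each other, so these values cannot exclude pairing. The replicate block left every log2 fold change as it was and gave the same counts, 2193 higher and 1765 lower. The fold threshold set these counts, which were also the same at an adjusted p below 0.01, so they say nothing about pairing. Signals below the first quartile limit HTR6 and probe set 262979_s_at on all 6 arrays, the leaf values of ICU2, TOP2, CENH3 and BUBR1 on 3 arrays, and AUR3, RAD5A and CDC6B on 2.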
